A study of Sus scrofa with 31 samples.

Results

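The T cell surface genes CD2, CD3E, CD5, CD8A and CD27 and the signalling gene LCK were followed in pig (Sus scrofa) myocardium during heart preservation. They were found by gene name, which gave 6 of the 21313 genes in the table of stored hearts and 5 of the 25149 genes in the table of hearts that were also perfused warm. CD3E was not found there by name or identifier. In the first arm, 24 libraries came from the hearts of 6 pigs, with biopsies at 0, 12, 24 and 48 h of storage. Pigs 1, 3 and 5 were stored under the condition labelled SCS and pigs 2, 4 and 6 under that labelled HOPE. SCS is usually read as static cold storage and HOPE as hypothermic oxygenated perfusion, although the labels give the letters alone. In the second arm, normothermic machine perfusion (NMP), the pumping of a warm perfusate through the heart, was run for 2 h once storage had ended, and 7 libraries were taken. Of these, 2 libraries each followed 3, 24 and 48 h of HOPE, and 1 library followed 24 h of SCS. The labels give no strain, age or sex.

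A T cell recognises antigen through its T cell receptor, whose signal enters the cell through the CD3 chains, among them CD3-epsilon (CD3E). CD8-alpha (CD8A) is the coreceptor chain of cytotoxic T cells and brings the kinase LCK to the receptor, where LCK phosphorylates the CD3 chains. CD2 is an adhesion and costimulatory receptor of T and natural killer (NK) cells, CD5 a receptor that dampens receptor signalling, and CD27 a costimulatory receptor of the tumour necrosis factor receptor family. Heart muscle holds few resident lymphocytes, and blood left in the vessels adds others. In RNA from a whole biopsy, fewer cells of a type and less RNA per cell cannot be told apart.

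The first arm gave 19722065 to 35099406 recovered reads per library, and no 2 libraries held identical values. Values are normalised counts, in which the authors had scaled each library by a size factor. The labels name cardiomyocytes as the cell type, and 11 of 11 listed cardiomyocyte genes found were tested, with summed levels of 1178070 to 2052250 normalised counts per library, but leukocyte, endothelial and red cell genes were measured in the same libraries. Some libraries stood apart. Mitochondrially encoded genes took 29.0% to 39.5% of normalised counts in HOPE libraries and 33.1% to 82.4% in SCS libraries, with the highest share in pig 5 at 48 h. At 0 h the HOPE heart of pig 6 had a summed level of the 6 genes of 466 normalised counts, against 215 and 219 in pigs 2 and 4. Its summed level of endothelial genes was also the highest of the 3, at 56780 normalised counts against 18400 and 25540. The SCS heart of pig 3 at 24 h had the highest summed level of the 6 genes of all 24 libraries, 711 normalised counts.

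The 6 genes were lowly expressed. Their means over the 24 libraries were 75.8 normalised counts for CD2, 59.9 for LCK, 53.9 for CD3E, 50.9 for CD8A, 36.5 for CD5 and 10.6 for CD27. All 6 reached the minimum mean of 10 normalised counts and were tested. CD27 did so narrowly and rested on 0 to 23 reads per library, whereas CD2 had 26 to 157 reads. Normalised counts are not divided by gene length, so levels of different genes were compared only in TPM (transcript abundance corrected for gene length and library total) of the second arm. There the order of the means over 7 libraries was LCK (6.68 TPM), CD2 (4.29 TPM), CD5 (1.74 TPM), CD8A (1.23 TPM) and CD27 (0.613 TPM). CD5 and CD8A overlapped widely between libraries. CD27 was under the minimum mean of 1 TPM and was described but not tested there.

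During HOPE storage, every one of the 6 genes was lower at 12 h than at 0 h in 3 of 3 hearts, but no change passed the test across all genes. The same held in 3 of 3 hearts for 4 of 6 genes at 24 h (CD2, CD8A, CD27 and LCK) and for 5 of 6 at 48 h (all but CD27). Among all 14141 genes tested, the share lower in 3 of 3 HOPE hearts was 14.6% at 12 h, 11.7% at 24 h and 13.8% at 48 h. The 3 times share their 0 h libraries, so these counts are not independent of each other. The median log2 change of the 6 genes was -1.01 at 12 h, -0.84 at 24 h and -0.95 at 48 h, beside 0.01, 0.02 and 0.01 over all genes tested. Without the 0 h library of pig 6, and with that pig's later libraries kept, the medians of the 6 genes were -0.57, -0.39 and -0.71.

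In SCS storage the pattern was less uniform. At 12 h, 2 of 6 genes (CD3E and CD8A) were lower in 3 of 3 hearts, beside 19.0% of all genes. At 24 h it was 0 of 6, beside 15.0%. At 48 h it was 4 of 6 (CD2, CD3E, CD8A and LCK), beside 16.2%. The median log2 changes of the 6 genes were -0.23, -0.13 and -0.70. By limma, 0 of 6 genes passed an adjusted p of 0.05 at any time in either kind of storage, and 0 of 14141 genes (0%) passed in each of these 6 comparisons. At an unadjusted p under 0.05, the genes that were lower in HOPE were 0 of 6 at 12 h (0.389% of all genes), 2 of 6 at 24 h (CD8A and CD27, 1.09%) and 2 of 6 at 48 h (CD2 and CD8A, 0.969%). In SCS they were 0 of 6 at 12 h (0.573%), 0 of 6 at 24 h (1.89%) and CD8A alone at 48 h (4.7%). These counts are from the fit without a block. With pig as a block, limma gave an unadjusted p under 0.05 for CD2, CD5 and LCK at 12 h in HOPE. For HOPE at 24 h it did so for CD2, CD8A and CD27, and at 48 h for CD2 and CD8A. In SCS it did so at 48 h alone, for CD3E, CD8A and LCK. Such a p was held in either direction by 559, 1197 and 1068 of all genes in HOPE, and by 2900 in SCS at 48 h. With the block 0 of 6 passed the adjusted threshold. edgeR and DESeq2 on the recovered reads also called 0 of 6 in each of these 6 comparisons.

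**Figure D1:**
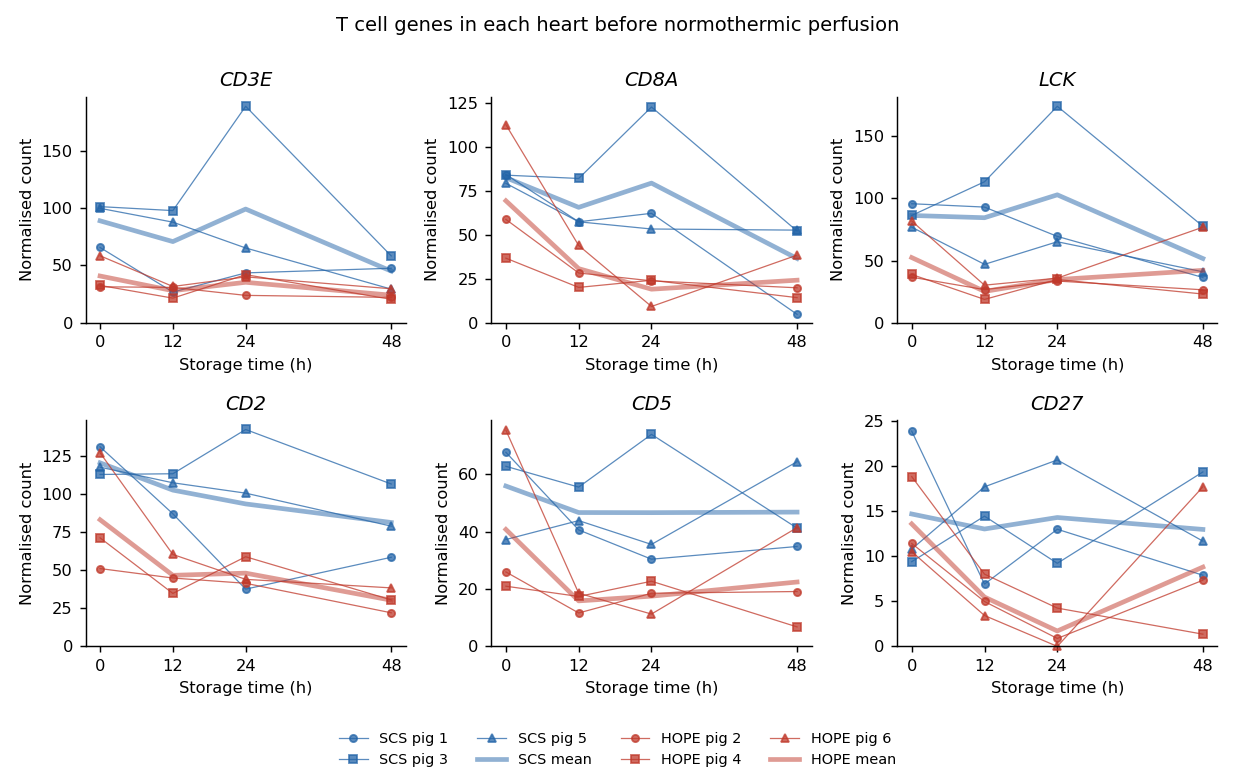
Normalised counts of the 6 genes (vertical axes, from 0, each with its own range) against storage time in h, with 1 thin line and marker per heart and a thick line for the mean of 3 hearts, SCS in blue and HOPE in red. HOPE lines start lower for CD3E and lie below the SCS lines for most genes at 12 and 24 h, while the SCS heart of pig 3 stands above the others at 24 h for all genes but CD27.

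CD3E (ENSSSCG00000040140, chr9:45619730-45633972 on Sscrofa11.1) carries the signal of the T cell receptor into the cell. In SCS hearts of pigs 1, 3 and 5 it measured 65.5, 101 and 99.6 normalised counts at 0 h. There it measured 26.7, 97.7 and 87.6 at 12 h, 43.4, 189 and 65.1 at 24 h, then 47.4, 58.1 and 29.2 at 48 h. In HOPE hearts of pigs 2, 4 and 6 it measured 31.3, 32.5 and 58.3 at 0 h, 30.8, 21.4 and 31.5 at 12 h, 23.8, 41.8 and 39.9 at 24 h, then 22, 20.3 and 29.5 at 48 h. The 2 groups already stood apart at 0 h, where all 3 HOPE hearts lay below all 3 SCS hearts. The log2 change at 48 h was -0.70 ± 0.49 (SE) in HOPE (limma adjusted p = 1.0) and -0.99 ± 0.49 in SCS (adjusted p = 0.623), and the test of the difference between these changes gave 0.30 ± 0.70 (adjusted p = 0.988).

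CD8A (ENSSSCG00000008217, chr3:57999228-58029768) encodes the coreceptor chain of cytotoxic T cells, which some NK cells also carry. HOPE hearts measured 58.7, 36.7 and 113 normalised counts at 0 h, 28.3, 20.1 and 43.9 at 12 h, 23.8, 24.1 and 9.21 at 24 h, then 19.8, 14.2 and 38.4 at 48 h. Each HOPE heart was thus lower at every later time than at its own start, with log2 changes from -0.59 to -3.47, and CD8A was the gene with the narrowest spread of changes at 48 h (-1.52, -1.31 and -1.53). SCS hearts measured 84.2, 83.9 and 79.2 at 0 h, 57.4, 82.0 and 57.4 at 12 h, 62.2, 123 and 53.3 at 24 h, then 4.74, 52.1 and 52.6 at 48 h. The value of 4.74 in pig 1 rested on 3 reads. The limma change at 24 h in HOPE was -1.78 ± 0.65 (SE, unadjusted p = 0.0129, adjusted p = 0.999). At 48 h it was -1.45 ± 0.65 in HOPE (adjusted p = 1.0) and -1.72 ± 0.65 in SCS (adjusted p = 0.526).

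LCK (ENSSSCG00000003608, chr6:88719886-88745922) is the kinase that starts receptor signalling. HOPE hearts measured 36.6, 38.8 and 81.8 normalised counts at 0 h, 26.6, 18.7 and 30.2 at 12 h, 33.5, 34.7 and 35.8 at 24 h, then 26.5, 23.1 and 76.8 at 48 h. The heart of pig 6 was back near its start at 48 h, whereas those of pigs 2 and 4 were nearer their start at 24 h and lower again at 48 h. SCS hearts measured 95.7, 86.2 and 76.8 at 0 h, 93.0, 113 and 46.9 at 12 h, 69.4, 174 and 65.1 at 24 h, then 36.4, 77.5 and 40.9 at 48 h. LCK in SCS showed no common direction at 12 and 24 h and was lower than at 0 h in 3 of 3 hearts at 48 h, with a limma change of -0.81 ± 0.46 (SE, adjusted p = 0.694).

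CD2 (ENSSSCG00000006736, chr4:103963802-103976971) binds CD58 and, more weakly, CD48 on partner cells. HOPE hearts measured 51.1, 71.3 and 127 normalised counts at 0 h, 44.9, 34.8 and 60.4 at 12 h, 41.4, 58.9 and 44.0 at 24 h, then 22, 30.5 and 38.4 at 48 h. All 3 HOPE hearts had their lowest CD2 value at 48 h. SCS hearts measured 131, 113 and 118 at 0 h, 87.0, 113 and 107 at 12 h, 37.6, 142 and 101 at 24 h, then 58.5, 107 and 78.9 at 48 h. The limma change at 48 h was -1.36 ± 0.40 in HOPE (SE, unadjusted p = 0.00265, adjusted p = 1.0) and -0.60 ± 0.40 in SCS (adjusted p = 0.731). Fitting pig as a block gave CD2 at 48 h in HOPE the lowest adjusted p of the 6 genes in that comparison, 0.240.

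CD5 (ENSSSCG00000013115, chr2:10648973-10673479) tunes receptor signalling down. HOPE hearts measured 25.9, 21.0 and 75.3 normalised counts at 0 h, 11.6, 17.4 and 18.5 at 12 h, 18.5, 22.7 and 11.3 at 24 h, then 19.1, 6.78 and 41.4 at 48 h. The mean at 0 h, 40.7 ± 30.0 (SD, n = 3), was set largely by pig 6. SCS hearts measured 67.6, 62.7 and 37.2 at 0 h, 40.6, 55.5 and 43.8 at 12 h, 30.4, 73.8 and 35.5 at 24 h, then 34.8, 41.2 and 64.3 at 48 h, with no direction common to 3 hearts at any time. Changes in HOPE were -1.10 ± 0.54, -1.0 ± 0.54 and -0.92 ± 0.54 (log2, SE) at 12, 24 and 48 h, with limma adjusted p of at least 0.999.

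CD27 (chr5:64197594-64202236) binds CD70. Its identifiers differ between the arms, ENSSSCG00000063084 in stored hearts and ENSSSCG00000000705 after NMP. HOPE hearts measured 11.4, 18.9 and 10.5 normalised counts at 0 h, 4.99, 8.02 and 3.43 at 12 h, 0.881, 4.25 and 0 at 24 h, then 7.35, 1.36 and 17.7 at 48 h. In reads these were 15, 18 and 13 at 0 h and 1, 6 and 0 at 24 h, so the lowest group was near the limit of counting. SCS hearts measured 23.9, 9.41 and 10.8 at 0 h, 6.92, 14.5 and 17.7 at 12 h, 13, 9.23 and 20.7 at 24 h, then 7.91, 19.4 and 11.7 at 48 h. CD27 had the largest fitted change of the 6 genes, -2.72 ± 0.72 (log2, SE) at 24 h in HOPE, with an unadjusted limma p of 0.00115 and an adjusted p of 0.999. At 48 h the hearts disagreed, with log2 changes of -0.58 in pig 2, -3.08 in pig 4 and 0.70 in pig 6.

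**Figure D2:**
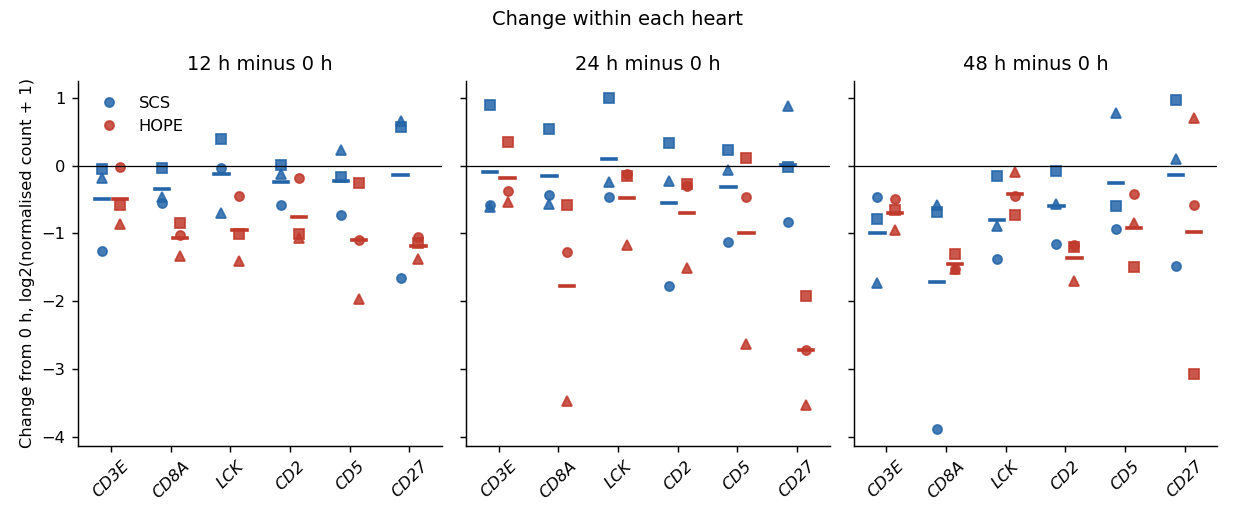
Change from 0 h within each heart on the log2(normalised count + 1) scale (vertical axis) for the 6 genes (horizontal axis) at 12, 24 and 48 h; each marker is 1 heart (circle, square and triangle for pigs 1, 3 and 5 in SCS, blue, and pigs 2, 4 and 6 in HOPE, red) and bars are means. All 18 HOPE markers lie under 0 at 12 h, and the lowest at 24 h are CD27 (-3.53) and CD8A (-3.47) of pig 6.

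The fit was repeated without the high 0 h library of pig 6 but with its 12, 24 and 48 h libraries. These estimates are therefore not means of changes within hearts. The changes in HOPE were then -0.40 for CD2, -0.21 for CD3E, -0.55 for CD5, -0.65 for CD8A, -1.34 for CD27 and -0.59 for LCK at 12 h. At 24 h they were -0.34 for CD2, 0.10 for CD3E, -0.45 for CD5, -1.36 for CD8A, -2.87 for CD27 and -0.12 for LCK. At 48 h they were -1.0 for CD2, -0.41 for CD3E, -0.37 for CD5, -1.03 for CD8A, -1.13 for CD27 and -0.06 for LCK. The changes were thus nearer 0 without that library for 5 of 6 genes, CD3E changed sign at 24 h, and CD27 was further from 0 at each time. Within the hearts of pigs 2 and 4, all 6 genes were lower at 12 h, CD3E of pig 2 by only 0.02, and at 24 h CD3E (0.36) and CD5 (0.11) were higher in pig 4.

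HOPE and SCS hearts were next compared at each time. At 0 h the fitted differences, HOPE minus SCS, were -1.14 ± 0.49 (log2, SE) for CD3E, -0.80 ± 0.46 for LCK, -0.63 ± 0.40 for CD2, -0.63 ± 0.54 for CD5, -0.39 ± 0.65 for CD8A and -0.03 ± 0.72 for CD27, which flipped to 0.08 under total-count scaling. By limma 0 of 6 genes passed the adjusted threshold, as did 0% of all genes, and only CD3E had an unadjusted p under 0.05 (0.0313), beside 3.58% of all genes that were lower at that level. edgeR and DESeq2 also called 0 of 6. Levels of all 3 HOPE hearts lay below those of all 3 SCS hearts for CD3E alone, beside 6.19% of all genes. The 2 groups are different pigs, so an effect of storage on the level at one time and a difference between the animals cannot be told apart.

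At 12 h the differences were -1.64 ± 0.46 for LCK, -1.51 ± 0.54 for CD5, -1.15 ± 0.40 for CD2, -1.13 ± 0.49 for CD3E, -1.12 ± 0.65 for CD8A and -1.09 ± 0.72 for CD27 (log2, SE). Levels did not overlap for 4 of 6 genes (CD2, CD5, CD8A and LCK), beside 12.0% of all genes. By limma 0 of 6 passed the adjusted threshold, with 0.0141% of all genes called in either direction, and 4 of 6 (CD2, CD3E, CD5 and LCK) had an unadjusted p under 0.05, beside 8.39%. edgeR and DESeq2 called 0 of 6. LCK had the lowest adjusted p, 0.238. Without the libraries of pig 6, LCK (adjusted p = 0.0223) and CD5 (adjusted p = 0.0379) passed, in a fit that called 4.57% of all genes lower.

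At 24 h CD27 was lower in HOPE than in SCS hearts, with a difference of -2.77 ± 0.72 on the log2 scale (SE) and a limma adjusted p of 0.0497. It was 1 of 6 genes called lower, beside 0.771% of all genes. Mean levels were 1.71 ± 2.25 normalised counts for the HOPE hearts and 14.3 ± 5.85 for the SCS hearts (SD, n = 3 each). This call lay at the edge of the threshold and did not hold under many settings: the adjusted p was 0.0563 with pig as a block, 0.070 by edgeR and 0.0233 by DESeq2, and leaving out a single pig gave 0.175 without pig 2, 0.173 without pig 3, 0.152 without pig 4 and 0.238 without pig 5. CD8A differed by -2.02 ± 0.65 (adjusted p = 0.0786), LCK by -1.39 ± 0.46 (0.083), CD5 by -1.31 ± 0.54 (0.135), CD3E by -1.23 ± 0.49 (0.128) and CD2 by -0.77 ± 0.40 (0.216), so none of these 5 passed by limma; DESeq2 called CD3E, CD8A and LCK as well as CD27, that is 4 of 6, beside 4.7% of all genes that it called lower. Levels of the HOPE hearts lay below those of the SCS hearts for 5 of 6 genes, all but CD2, beside 12.9% of all genes, and 5 of 6 had an unadjusted p under 0.05, beside 12.2%. Without the 24 h SCS library of pig 3 the differences came to -1.66 for CD8A, -0.94 for LCK, -0.92 for CD5, -0.62 for CD3E and -0.37 for CD2, and that for CD27 to -3.02 (adjusted p = 0.132).

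At 48 h CD2 was lower in HOPE hearts, with a difference of -1.39 ± 0.40 (log2, SE), a limma adjusted p of 0.0447 and, with pig as a block, 0.0363 (4.63% of all genes called lower). It was the 1 gene of 6 called, beside 2.41% of all genes called lower, and the 1 gene whose levels did not overlap, beside 10.2%. Mean levels were 30.3 ± 8.18 normalised counts for the HOPE hearts and 81.3 ± 24.1 for the SCS hearts (SD, n = 3 each). Its adjusted p was 0.0466 by edgeR (2.43% called lower) and 0.0123 by DESeq2 (6.46%). The call was lost without the libraries of pig 2 (0.236), pig 3 (0.155), pig 4 (0.215) or pig 5 (0.202), and without the 48 h library of pig 5 alone (0.134). It was also lost with no minimum mean (0.0591), with only the libraries compared (0.214) and under total-count scaling, where the difference was -0.29 (0.595). The other differences were -1.30 ± 0.54 for CD5 (adjusted p = 0.124), -0.88 ± 0.72 for CD27, -0.84 ± 0.49 for CD3E, -0.42 ± 0.46 for LCK and -0.13 ± 0.65 for CD8A. Those of CD27, CD3E, LCK and CD8A turned positive under total-count scaling, where the median of all genes was 1.12. That of CD8A also turned positive under quantile normalization. CD2 and CD5 had an unadjusted p under 0.05, beside 12.3% of all genes that were lower.

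Scaling mattered most at this time. Scaling by total counts in place of the authors' size factors moved the median of all genes, HOPE minus SCS, from 0.02 to 1.12 at 48 h, from 0.01 to 0.39 at 24 h and from 0.00 to 0.47 at 12 h. It moved the median SCS change at 48 h from -0.03 to -0.99, with 39.4% of all genes called lower there; the mitochondrial share of these SCS libraries was 48.0% to 82.4%. Relative to the HOPE minus SCS median of 1.12 at 48 h, CD2, with a difference of -0.29 under total-count scaling, stood at -1.41. CD5 stood at -1.34, CD27 at -1.04, CD3E at -0.90, LCK at -0.46 and CD8A at -0.18.

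**Figure D3:**
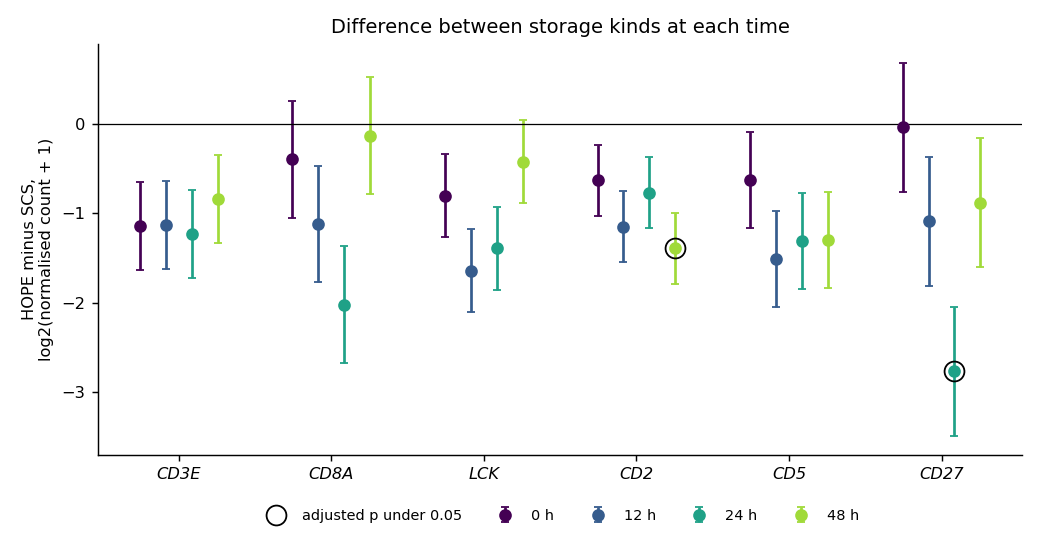
Fitted difference HOPE minus SCS on the log2(normalised count + 1) scale (vertical axis) for the 6 genes at 0, 12, 24 and 48 h; points are limma estimates from 3 hearts a group, bars are SE and black rings mark an adjusted p under 0.05. All 24 estimates are under 0, from -0.03 (CD27 at 0 h, which flips under total-count scaling) to -2.77 (CD27 at 24 h). Under total-count scaling CD3E, CD8A, CD27 and LCK at 48 h turn positive but stay below the median of all genes, 1.12.

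Whether HOPE and SCS hearts changed differently from their own 0 h biopsies was tested as a difference of changes. By limma 0 of 6 genes passed at 12, 24 or 48 h, as did 0% of all genes each time, and edgeR and DESeq2 called 0 of 6. At an unadjusted p under 0.05 the genes lower in HOPE were 0 of 6 at 12 h (0.347% of all genes), CD27 alone at 24 h (1.08%) and 0 of 6 at 48 h (1.62%). CD27 at 24 h gave -2.73 ± 1.02 (log2, SE, unadjusted p = 0.0143, adjusted p = 1.0), and CD8A -1.62 ± 0.92. The changes of all 3 HOPE hearts lay below those of all 3 SCS hearts for CD8A at 12 h (beside 8.09% of all genes), for CD8A and CD27 at 24 h (6.88%) and for CD2 at 48 h (7.16%). The estimates for CD2 and CD3E at 24 h, -0.14 and -0.09, changed sign under total-count scaling. So did those for CD2, CD5 and CD27 at 48 h (-0.76, -0.67 and -0.85). In that scaling the median of all genes was 0.30 at 24 h and 1.03 at 48 h. Relative to these medians the estimates were -0.19 and -0.14 at 24 h, and -0.82, -0.74 and -1.03 at 48 h.

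The rest of the T cell programme was read from lists of genes. None of the listed genes named here passed the limma threshold for any change from 0 h without a block. With pig as a block CD3D in SCS and CX3CR1 in HOPE did, both at 48 h. Of 3 further genes of the receptor complex tested, CD3D, CD247 and CD4, each had a negative change in HOPE at 12, 24 and 48 h. CD3D, a partner of CD3E, was at -1.06 in HOPE at 48 h (adjusted p = 1.0) and -2.29 in SCS at 48 h (adjusted p = 0.380). With pig as a block its change in SCS at 48 h passed (adjusted p = 0.0316), in a fit that called 1.1% of all genes lower. CD247, the zeta chain, was at -0.60 and 0.09, and CD4, the coreceptor of helper T cells that macrophages also express, at -0.17 and 0.34. Of 8 transcription factors of T cells tested, 7, 7 and 8 had negative changes in SCS at 12, 24 and 48 h, with medians of -0.30, -0.28 and -0.42. In HOPE 8 had negative changes at each time, with medians of -0.58, -0.75 and -0.82, and 0 were called. RUNX3, a factor of cytotoxic T cells, was at -1.61 at 48 h and LEF1, a factor of naive T cells, at -1.85 (log2, adjusted p = 1.0 for both).

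Genes of receptor signalling varied more. Of 20 tested, 16, 17 and 18 had negative changes in HOPE at 12, 24 and 48 h, with medians of -0.19, -0.41 and -0.30, and in SCS 14, 14 and 18 had, with medians of -0.18, -0.28 and -0.58. PRKCQ, the protein kinase C of the T cell synapse, was at -2.17 in HOPE and -0.26 in SCS at 48 h, SH2D1A, an adaptor of T and NK cells, at -2.10 and -1.0, and RASGRP1, which activates Ras, at -0.95 and -0.52. Of 7 costimulation and homing genes tested, 6, 7 and 6 were negative in HOPE, and 5, 3 and 6 in SCS. CD6, a relative of CD5, was lower in HOPE than in SCS at 24 h, at -1.96 (limma adjusted p = 0.0282). It was the 1 gene of the 7 called lower, beside the 0.771% of all genes. With pig as a block 3 of the 7 were called lower, beside 4.09% of all genes. At 0 h 6 of the 7 were already lower in HOPE than in SCS, with a median of -0.64. In the difference of changes at 24 h 0 of the 7 were called, with a median of -0.76. Of the ligands, CD58 was at 0.18, CD48 at -0.42 and CD72, a B cell protein described as a partner of CD5, at -0.57 in HOPE at 48 h, and CD70, with a mean of under 10 normalised counts, was not tested.

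Markers of other cells moved with the 6 genes to different degrees. Of 9 NK and cytotoxic cell genes tested, 9 at 12 h, 8 at 24 h and 9 at 48 h were lower in 3 of 3 HOPE hearts. The shares of all genes were 14.6%, 11.7% and 13.8%. The medians of the 9 genes in HOPE were -0.95, -0.85 and -0.92. In SCS 3, 0 and 2 of the 9 were lower in 3 of 3 hearts, beside 19.0%, 15.0% and 16.2%. Their medians there were -0.03, 0.10 and -0.27. Without a block 0 passed the limma threshold. With pig as a block CX3CR1, a chemokine receptor of cytotoxic lymphocytes and monocytes, was called lower in HOPE at 48 h, at -1.54 (adjusted p = 0.0187), the only gene so called among all tested (0.00707%). KLRK1, an activating NK receptor, was at -1.70 in HOPE at 48 h, PRF1, the pore protein perforin, at -1.57 and GNLY, granulysin, at -1.24. Against SCS at 24 h, 4 of 9 were called lower in HOPE, beside 0.771% of all genes. At 48 h 5 of 9 were, beside the 2.41% of all genes. Among them were GNLY at -2.04 (limma adjusted p = 0.0238) and KLRK1 at -2.12 (0.0182). At 0 h 8 of the 9 genes were already lower in HOPE than in SCS, with a median of -0.53. In the difference of changes 0 of the 9 were called at 24 h and at 48 h, with medians of -0.74 and -0.63. Their summed level ranged from 643 to 1422 normalised counts in HOPE hearts at 0 h and from 317 to 500 at 48 h, and in SCS hearts from 1008 to 1549 and from 936 to 1291. CD2, CD8A, LCK and CD27 are also expressed by NK cells, and the part of NK cells in the changes of the 6 genes was not tested.

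Macrophage and monocyte genes did not share the direction in HOPE: of 11 tested, 5, 5 and 2 had negative changes, with medians of 0.06, 0.06 and 0.24. In SCS 2, 5 and 9 had negative changes at 12, 24 and 48 h, with medians of 0.13, 0.08 and -0.40. Of 8 pan-leukocyte genes, 8, 8 and 7 were negative in HOPE, with medians of -0.39, -0.28 and -0.23. In SCS 5, 6 and 7 were negative, with medians of -0.05, -0.10 and -0.43. With pig as a block, 1 macrophage and monocyte gene and 2 pan-leukocyte genes were called lower in SCS at 48 h, beside 1.1% of all genes. B cell genes were mostly too low, with 3 of 8 tested and MS4A1 and PAX5 among those under the minimum. Endothelial genes also had mostly negative changes in HOPE, in 12, 12 and 8 of 12 tested at 12, 24 and 48 h. Their medians were -0.26, -0.25 and -0.11, and 4, 0 and 1 were lower in 3 of 3 HOPE hearts. In SCS at 12 h 10 of the 12 were negative, with a median of -0.20. Red cell genes went the other way in HOPE hearts, with summed levels of 24 to 48 normalised counts at 0 h and 174 to 690 at 48 h, beside 29 to 68 and 36 to 103 in SCS; the part of blood content in the T cell values was not tested.

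The 6 genes were also expressed relative to pan-leukocyte genes of the same library, as a description. Their summed normalised counts per 1000 of the 8 pan-leukocyte genes were 75.6, 72.2 and 113 in HOPE hearts of pigs 2, 4 and 6 at 0 h, 59.7, 47.5 and 62.2 at 12 h, 49.2, 68.1 and 51.6 at 24 h, then 44.7, 37.8 and 67.7 at 48 h. Every HOPE heart was below its own 0 h ratio at all 3 later times. Per 1000 of the 11 macrophage and monocyte genes this did not hold for pig 4, at 30.9 at 24 h against 30.7 at 0 h, a value above the 27.5 of the SCS heart of pig 1 at 24 h. In SCS hearts of pigs 1, 3 and 5 the ratio was 102, 99.4 and 103 at 0 h, 78.0, 103 and 78.6 at 12 h, 69.1, 131 and 84.5 at 24 h, then 68.7, 78.8 and 81.8 at 48 h, so that all 3 were below their start at 48 h. The ratio does not depend on how a library was scaled, and T cells express the pan-leukocyte genes too. HOPE hearts lay below SCS hearts at 12 h, and by a narrow margin at 24 h (at most 68.1 against at least 69.1) and 48 h (67.7 against 68.7). Already at 0 h the HOPE hearts of pigs 2 and 4 lay below all 3 SCS hearts, while that of pig 6 lay above them.

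**Figure D4:**
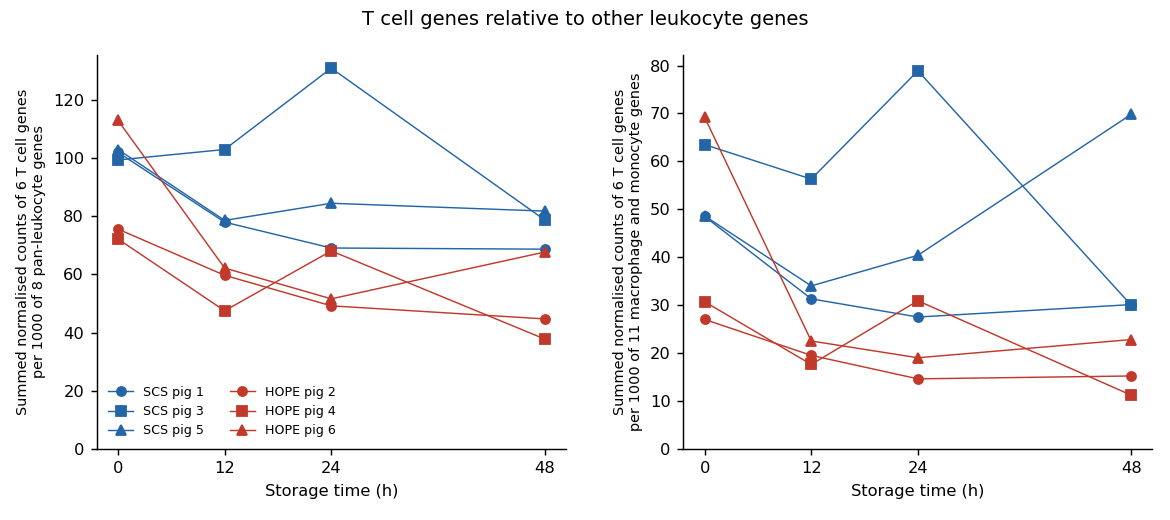
Summed normalised counts of the 6 T cell genes per 1000 of the summed 8 pan-leukocyte genes (left) and of the 11 macrophage and monocyte genes (right) against storage time in h, 1 line per heart, SCS in blue and HOPE in red, axes from 0. In the left panel all HOPE hearts are at 37.8 to 68.1 after 0 h and all SCS hearts at 68.7 to 131. At 0 h the HOPE hearts of pigs 2 and 4 (75.6 and 72.2) are already below the SCS hearts (99.4 to 103), and pig 6 (113) is above them. In the right panel the HOPE heart of pig 4 (30.9) lies above the SCS heart of pig 1 (27.5) at 24 h.

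Over the 24 libraries the 6 genes correlated with each other at Pearson r of 0.40 (CD3E and CD27) to 0.81 (CD5 and LCK). With each pig's mean taken out, r was 0.11 (CD3E and CD27) to 0.72 (CD8A and LCK). The 24 libraries are repeated biopsies of 6 pigs, so these values describe the set and carry no test. Among all other tested genes with a symbol, those most like the mean of the 6 were RAC2, a leukocyte GTPase (r = 0.94), CD244, a receptor of NK and T cells (0.89), NHERF1 (0.89), PTPRC, the pan-leukocyte phosphatase CD45 (0.88), RAP1B (0.88), C3orf38 (0.88), TNFAIP8 (0.88) and CORO1A, a leukocyte actin regulator (0.88). With pig means taken out they were RAC2 (0.89), PTPRC (0.86), CXCL10 (0.85), GZMH (0.85), CD244 (0.84), CST7 (0.79), CORO1A (0.78) and GPR174 (0.78).

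After NMP, the hearts were sequenced with another kit and deposited as TPM, so no level was compared across the arms. The SCS library stood apart from the HOPE libraries before any T cell gene was considered. Its 8 cardiomyocyte genes summed to 3415 TPM, against 47478 to 78481 TPM in the 6 HOPE libraries. The median log2 difference of these 8 genes from HOPE 24 h was -4.27. Red cell genes of the SCS library summed to 6161 TPM, against 34.2 to 3125 TPM. The median of all genes, SCS 24 h minus HOPE 24 h, was -0.73. Its pan-leukocyte genes summed to 181 TPM, against 60.0 to 108 TPM in HOPE.

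In that SCS library CD2 measured 11.7 TPM, against 2.53 and 4.22 TPM after 24 h of HOPE, 1.70 and 2.13 TPM after 3 h, and 4.86 and 2.87 TPM after 48 h. It lay above all 6 HOPE libraries. The difference from HOPE 24 h was 1.57 ± 0.41 on the log2(TPM + 1) scale (SE, 1 library against 2), with a limma adjusted p of 0.0311, and CD2 was 1 of 4 tested genes called higher, beside 1.8% of all genes. The call was lost without the first HOPE 24 h library (adjusted p = 0.140) and without the second (0.0831), and it rests on a single SCS library, whose spread was taken to equal that of the HOPE groups. The part of the low cardiomyocyte content in it was not tested.

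CD5 measured 3.46 TPM in the SCS library, 1.01 and 1.45 TPM after 24 h of HOPE, 1.23 and 1.27 TPM after 3 h, and 2.36 and 1.41 TPM after 48 h, a difference of 1.01 ± 0.40 from HOPE 24 h (adjusted p = 0.0978). CD8A measured 2.22 TPM in the SCS library and 0.471 and 1.80 TPM after 24 h of HOPE (0.67 ± 0.56, adjusted p = 0.392). LCK measured 10.5 TPM in the SCS library and 2.78 and 5.51 TPM after 24 h of HOPE (1.22 ± 0.83, adjusted p = 0.295). CD5 and CD8A were thus highest in the SCS library. CD2 and CD5 had an unadjusted p under 0.05, beside 3.69% of all genes that were higher. CD27 went the other way, with 0.368 TPM in the SCS library and 0.529 to 0.818 TPM in the 6 HOPE libraries.

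Between HOPE storage times after NMP, limma called 0 of 4 genes in each comparison, with 0% of all genes called. LCK measured 1.21 and 2.52 TPM after 3 h, 2.78 and 5.51 TPM after 24 h, and 20.5 and 3.70 TPM after 48 h. One of the 48 h libraries stood far above the other. The difference of 48 h from 3 h was 1.85 ± 0.67 (log2, SE, unadjusted p = 0.0272, adjusted p = 0.607), and LCK was the 1 gene of 4 with an unadjusted p under 0.05 there, beside 5.77% of all genes that were higher. At 24 h against 3 h, 0 of 4 genes had such a p (12.8% of all genes), and at 48 h against 24 h 0 of 4 (0.801%). CD2 was at 0.71 ± 0.34 for 48 h against 3 h (adjusted p = 0.686) and CD8A at 0.19 ± 0.45 (0.949), with CD8A of the 2 libraries of a group spread from 0.403 to 1.48 TPM after 3 h and from 0.471 to 1.80 TPM after 24 h. No count test was possible on TPM.

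**Figure D5:**
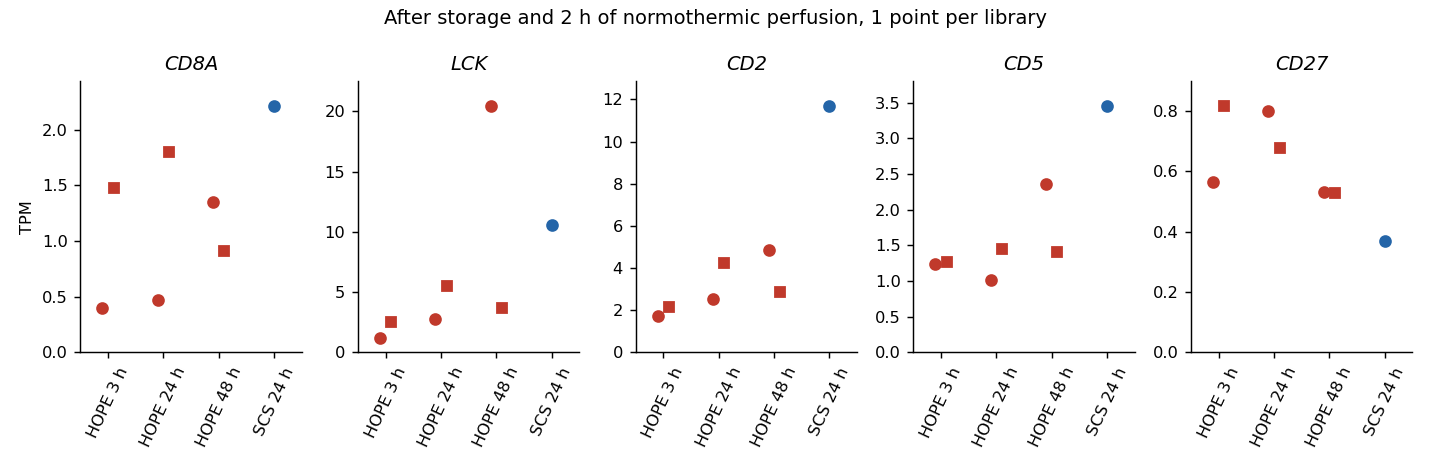
TPM of the 5 genes found (vertical axes, from 0, each with its own range) in the 7 libraries taken after storage and 2 h of NMP, 1 point per library, HOPE in red (2 libraries a group) and SCS in blue (1 library). The SCS library is the highest for CD2 (11.7 TPM), CD5 and CD8A and the lowest for CD27, and 1 HOPE 48 h library reaches 20.5 TPM of LCK.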

How the data were processed

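Arm 1 holds 24 libraries of whole myocardial biopsies and arm 2 holds 7. Groups, times and pig numbers came from the sample titles. In arm 1 the deposited values are a signal, gene counts that the authors had divided by 1 size factor per library; dividing by the value of 1 read brought 100% of them to whole numbers (within 1e-06), which recovered the reads. In arm 2 the deposited values are TPM, per the file's column sums, and depth is unknown. The arm 2 table has 11 further columns that belong to no listed sample and were left aside. The submitters' processing notes name, without roles, DESeq2, STAR 2.5.2b, HISAT2 2.2.1, Subread 1.5.2, featureCounts 2.0.6, Trimmomatic 0.36, bcl2fastq 2.17, FastQC and the build Sscrofa11.1. Per the labels' protocols, libraries were made with a stranded poly(A) kit from RNA with an integrity number over 6 in arm 1, and with another poly(A) kit and spike-ins in arm 2. The strand setting of the counting is not given in these sources. Gene positions are those of RefSeq for Sscrofa11.1, matched by symbol for 6 of 6 genes.

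The main test was limma 3.58.1 in R 4.3.3 (lmFit and eBayes with trend), 1 fit per arm, on log2(value + 1), two-sided, with Benjamini-Hochberg adjustment over all genes tested and a threshold of 0.05. On this scale the change of a low gene is understated. The 14141 arm 1 genes with a mean of 10 normalised counts or more and the 10986 arm 2 genes with a mean of 1 TPM or more were tested. Residual degrees of freedom were 16 and 3. The fit was tested on simulated data. Recovered reads were also tested with edgeR 4.0.16 (quasi-likelihood) and DESeq2 1.42.0. Other alternatives changed the pseudocount, minimum, scaling, libraries fitted and block.

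The same pig gave all 4 biopsies of a heart, and deviations of same-pig libraries from their group means correlated at r of 0.232 to 0.72 (18 SCS pairs) and 0.399 to 0.73 (18 HOPE pairs). Pig was therefore also fitted as a block, fixed for changes and random for HOPE against SCS (estimated correlation 0.44). The labels do not say that arm 2 libraries are from separate animals or that equal numbers pair; p-values there measure the spread between these libraries.

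All 6 genes are named in every library. Of each other list the text names at most the 4 genes with the lowest p in HOPE at 48 h against 0 h, and of the genes most like the 6, the 8 with the highest r; some listed genes are not reported here. The 6 genes and the lists were chosen with earlier results of these data known.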

Additional observations from a re-analysis of the deposited data

How the results depend on the processing

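Counts of the 6 genes called did not move in most settings; the exceptions follow. For SCS at 48 h against 0 h, total-count scaling called 4 lower (CD2, CD3E, CD8A and LCK) in place of 0, beside 39.4% of all genes. For HOPE against SCS at 12 h, leaving out 1 pig gave 0 to 2. At 24 h, in place of 1, 0 were called with a pseudocount of 5, no minimum, total-count, TMM or quantile scaling, edgeR, pig as a replicate block, only the libraries compared, or without the SCS 24 h library of pig 3 (chosen after seeing the data, as were the other 2 libraries left out singly), and 4 with DESeq2; leaving out 1 pig gave 0 to 4. At 48 h, in place of 1, 0 were called with no minimum, total-count scaling, only the libraries compared, or without the SCS 48 h library of pig 5, and leaving out 1 pig gave 0 to 2. For SCS 24 h against HOPE 24 h after NMP, in place of 1, 0 were called with no minimum, and leaving out 1 library gave 0 to 1. The block changed no other call of the 6 genes, and its use in arm 2, where numbers need not pair, left 1 call (CD2, adjusted p = 0.0408). A minimum mean of 10 TPM left none of the genes to test.

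Total-count scaling moved the median of all genes at 48 h to 1.12 for HOPE against SCS and to 1.03 for the difference of changes. Signs turned only in estimates that were not called. Under total-count scaling they were, for SCS at 24 h against 0 h, CD27 (-0.32) and LCK (-0.24); for HOPE against SCS, CD27 at 0 h (0.080) and, at 48 h, CD3E (0.22), CD8A (0.94), CD27 (0.081) and LCK (0.66); for the difference of changes, CD2 (0.12) and CD3E (0.17) at 24 h and CD2 (0.21), CD5 (0.29) and CD27 (0.00042) at 48 h. Under quantile normalization they were CD27 for SCS at 24 h (-0.020) and for HOPE against SCS at 0 h (0.082), and CD8A at 48 h (0.15). With edgeR and DESeq2 they were CD3E (0.17 and 0.16) and CD27 (-0.024 and -0.040) for SCS at 24 h, and in the difference of changes CD3E at 12 h (-0.24 and -0.21) and CD8A at 48 h (-0.36 and -0.34).

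Without the HOPE 0 h library of pig 6, CD3E at 24 h in HOPE was 0.10, CD27 for HOPE against SCS at 0 h 0.11, and the differences of change at 24 h 0.22 for CD2 and 0.20 for CD3E. Without the SCS 24 h library of pig 3 these last were 0.26 and 0.52, and LCK for SCS at 24 h was -0.35. Without the SCS 48 h library of pig 5, CD8A for HOPE against SCS at 48 h was 0.41.

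Leaving out 1 pig, or after NMP 1 library, at a time gave these ranges of log2 estimates where a sign turned. HOPE 48 h against 0 h gave -1.83 to 0.063 for CD27. SCS 12 h against 0 h gave -0.45 to 0.028 for CD5, -0.54 to 0.62 for CD27 and -0.37 to 0.17 for LCK. SCS 24 h against 0 h gave -1.0 to 0.054 for CD2, -0.60 to 0.15 for CD3E, -0.60 to 0.083 for CD5, -0.35 to 0.38 for LCK, -0.50 to 0.055 for CD8A and -0.43 to 0.43 for CD27. SCS 48 h against 0 h gave -0.77 to 0.089 for CD5 and -0.69 to 0.54 for CD27. HOPE against SCS at 0 h gave -0.28 to 0.35 for CD27. HOPE against SCS at 48 h gave -1.20 to 0.41 for CD8A. The difference of changes at 12 h gave -0.37 to 0.23 for CD3E. The difference of changes at 24 h gave -0.36 to 0.41 for CD3E, -0.75 to 0.31 for CD2 and -1.23 to 0.14 for CD5. The difference of changes at 48 h gave -0.82 to 0.83 for CD8A, -1.69 to 0.20 for CD27 and -0.075 to 0.56 for CD3E. After NMP, HOPE 24 h against HOPE 3 h gave -0.34 to 0.59 for CD8A and -0.16 to 0.12 for CD5. After NMP, HOPE 48 h against HOPE 3 h gave -0.22 to 0.60 for CD8A. After NMP, HOPE 48 h against HOPE 24 h gave -0.15 to 0.45 for CD2, -0.40 to 0.53 for CD8A and -0.078 to 2.11 for LCK.

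Over all genes, HOPE against SCS gave 288 calls at 24 h and 884 at 48 h by limma, 219 and 841 by edgeR, and 1521 and 1931 by DESeq2. At 12 h the calls were 2, 2 and 86. With pig as a block limma gave 1396 at 24 h and 1628 at 48 h. With only the libraries compared it gave 0 at both times. Leaving out 1 pig gave 2 to 2721 at 24 h and 5 to 3282 at 48 h. Without the SCS 24 h library of pig 3 the calls at 24 h were 3. Without the SCS 48 h library of pig 5 those at 48 h were 14. Depth limits CD27 most, with 0 to 23 reads per library.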
